A study of Homo sapiens with 13 samples.

Results

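LINC00520 is a long intergenic non-coding RNA (lincRNA), a polyadenylated transcript that encodes no recognised protein and lies between coding genes. MCF10A is a human breast epithelial line, immortal but not tumour-forming, with many features of basal cells, although the labels list its cell type as breast cancer. Parental MCF10A cells transduced with LINC00520 (2 libraries) were compared with untransduced parental MCF10A cells (3 libraries), all harvested 72 h after transduction or its mock. Both groups were grown in the same medium with equine serum, hydrocortisone, cholera toxin, EGF and insulin. PolyA RNA was sequenced, and the deposited table gives estimated fragments and FPKM (fragments scaled to transcript length and library size) for 38369 gene rows. The comparison covers the 12798 rows with a mean FPKM of 1 or more in either group, of which 12295 reached that level in both groups, 168 in LINC00520-transduced cells alone and 335 in untransduced cells alone. Just inside that limit lay BAI2 (mean FPKM 0.861 in LINC00520-transduced and 1.00 in untransduced cells), and just outside it lay BCAN (0.618 and 0.998). Of these rows 12735 were tested, 47 lay below the filter of the test and 16 lacked a valid quantification status in the deposited table; a further 55 rows passed the filter of the test alone.

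The titles call the control cells untransduced and their descriptions speak of a mock transduction, so they were taken to carry no vector. The labels name neither the vector, nor its promoter, nor the isoform of LINC00520 that it carried. Libraries of a control lincRNA, named in the labels, were not analysed here, so an effect of LINC00520 and an effect of transduction itself cannot be told apart in any result that follows. The LINC00520-transduced libraries held 25.2 and 23.4 M fragments and the untransduced libraries 36.4, 30.3 and 22.9 M. The labels do not tell whether the libraries of a group are separate cultures, and the p-values therefore speak of the spread among libraries, possibly a technical one.

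As background, lincRNAs act in many ways, among them as scaffolds for proteins, as competitors for microRNAs and through transcription of their own locus, and the sequence alone does not tell which applies. In the same study LINC00520 was followed through Src-driven transformation of an MCF10A derivative. Src is a membrane-bound tyrosine kinase whose signal reaches, among others, the transcription factor STAT3. MCF10A cells depend on EGF, insulin and hydrocortisone for growth. The gene groups described here cover those inputs, along with the cell cycle, protein synthesis and the epithelial identity of the cells. They were chosen with earlier results of these data known, so their counts describe these data and are not independent support.

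The files, which use hg19, hold no row of the name LINC00520, and the lincRNA row linc-TBPL2-2 (XLOC_004884, chromosome 14, 56243909 to 56263392) was taken as LINC00520 from its place between the genes KTN1 and PELI2. It had 1122 and 1031 fragments in LINC00520-transduced cells, against 5, 6 and 2 in untransduced cells. Its level was 225.2 and 224.0 FPKM in LINC00520-transduced cells and 0.412, 0.531 and 0.213 FPKM in untransduced cells. Both LINC00520-transduced libraries lay close together and far above all untransduced ones. By edgeR's quasi-likelihood test the fragment counts differed 304-fold (log2 8.25, SE 0.127, adjusted p = 4.19e-24). LINC00520 was the transduced gene, and its row passed the filter of the test only through the LINC00520-transduced libraries. That p-value thus describes a difference set by the design. SRC, the kinase gene, had 37.8 and 39.9 CPM (fragments scaled to a common library total, after TMM scaling) in LINC00520-transduced cells and 39.7, 37.5 and 37.0 CPM in untransduced cells, and the groups overlapped (log2 0.02, SE 0.0524, edgeR adjusted p = 0.725). STAT3 had 203 and 209 CPM in LINC00520-transduced cells and 238, 243 and 239.9 CPM in untransduced cells, 1.17-fold lower (edgeR adjusted p = 9.77e-07).

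Many genes moved by a little and few by much. Of 12790 rows tested (FPKM of 1 or more in at least 2 of the 5 libraries), 6396 passed the edgeR test at an adjusted p under 0.05, or 50.0%. They were 3218 higher rows (25.2%) and 3178 lower rows (24.8%). Their median absolute change was 0.244 on the log2 scale, and 3482 of them (54.4%) had changed by less than 1.2-fold. A change of 1.2- to 1.5-fold was seen in 2210 rows, 1.5- to 2-fold in 542, 2- to 4-fold in 150 and 4-fold or more in 12, of which 4 were higher and 8 lower. At least 2-fold higher were 57 rows (0.446% of those tested) and at least 2-fold lower 105 (0.821%). When the test asked for a change beyond 1.2-fold (edgeR's glmTreat), 671 rows were higher (5.25%) and 700 lower (5.47%), together 10.7% of rows. The spread between libraries of a group beyond counting noise was small, with a common coefficient of variation of 0.0249 (edgeR). Counting noise, which is larger in rows of few fragments, comes on top of it. The libraries of the groups did not overlap in 66.5% of all rows tested, in 6325 of the 6396 called rows and in all 162 with a 2-fold change. In bulk RNA, fewer cells of a type and less RNA per cell cannot be told apart. Counts of called members in a gene group are to be read beside the shares of 25.2% higher and 24.8% lower.

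The calls followed the expression level, as the plot of fold change against level shows. When rows were ranked by FPKM and cut into 4 equal parts, in the lowest part, 37.7% were called, with a median standard error of 0.116 on the log2 scale. In the highest part 61.5% were called, with a median standard error of 0.0346. The 2-fold changes lay mostly in the lowest part, which held 30 of the 57 rises and 75 of the 105 falls, against 9 and 8 in the highest part. LINC00520, FN1, ID3, KRT14 and THBS1 on the higher side, and CAMK2B, LAPTM5 and TSC22D3 on the lower side, are 2-fold changes at high counts.

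**Figure D1:**
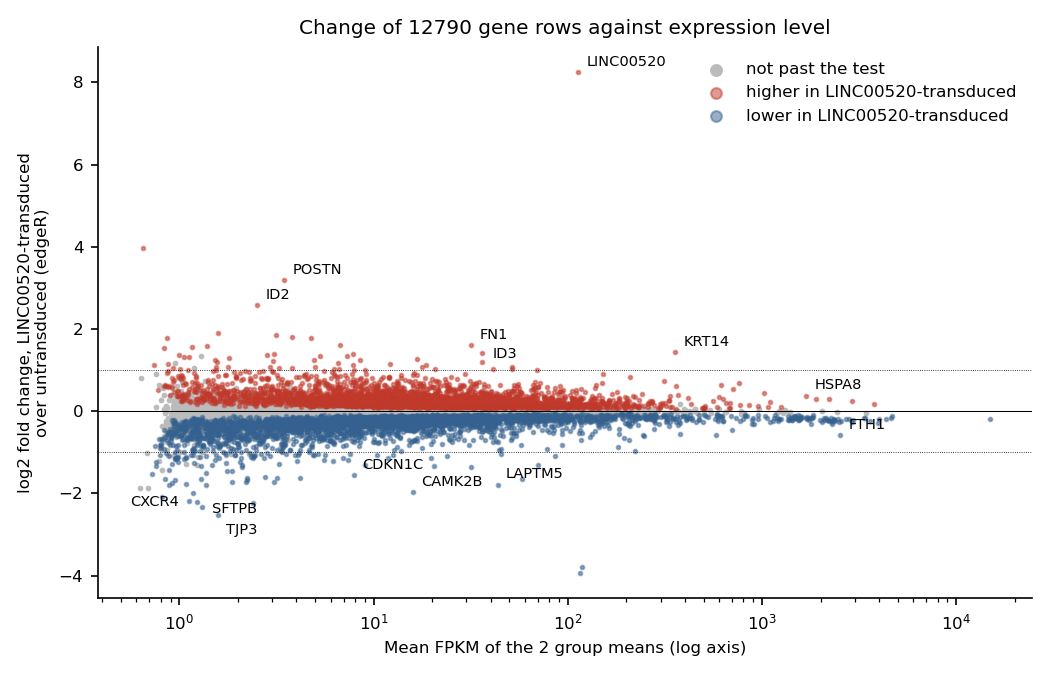
The log2 fold change of LINC00520-transduced over untransduced cells (vertical axis, edgeR) is plotted against the mean FPKM of both groups (horizontal log axis) for 12790 gene rows, with called higher rows in red, called lower rows in blue, other rows in grey and dotted lines at 2-fold. LINC00520 stands alone at 8.25, the called rows form a narrow band around 0, and the larger changes lie mostly at low levels.

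Of the 4 ID genes 3 rose. ID1, ID2, ID3 and ID4 encode helix-loop-helix proteins without a DNA-binding region, which bind other helix-loop-helix factors and keep them off DNA, and they are standard early targets of BMP signals acting through SMAD proteins. ID2 had 7.45 and 6.37 CPM in LINC00520-transduced cells, against 1.48, 0.999 and 0.882 CPM in untransduced cells, and rose 5.95-fold (log2 2.57, SE 0.168, edgeR adjusted p = 7.68e-12). ID3 had 61.8 and 63.9 CPM in LINC00520-transduced cells and 25.6, 22.6 and 22.5 CPM in untransduced cells, a 2.65-fold rise (log2 1.41, SE 0.0547, edgeR adjusted p = 5.62e-16). ID1 had 174.8 and 169.7 CPM in LINC00520-transduced cells and 94.2, 92.6 and 87.6 CPM in untransduced cells, a 1.88-fold rise (log2 0.91, SE 0.0346, edgeR adjusted p = 3.38e-16). In all 3 genes every LINC00520-transduced library lay above every untransduced one. The groups were likewise without overlap, in either direction, in 66.5% of all rows tested. ID4 was below the filter on low levels and was not tested.

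The promoters of the 3 ID genes that rose are shown because they are the members of 1 family that moved together. Each runs from 250 bases before to 50 bases after the gene's start (RefSeq, GRCh38.p14). ID2 is on the plus strand at chr2:8681806-8682105, ID3 on the minus strand at chr1:23559452-23559751 and ID1 on the plus strand at chr20:31605039-31605338. Capitals mark GTCT or its reverse complement AGAC, the 4-base core bound by SMAD proteins, and no 2 matches overlap.
ID2: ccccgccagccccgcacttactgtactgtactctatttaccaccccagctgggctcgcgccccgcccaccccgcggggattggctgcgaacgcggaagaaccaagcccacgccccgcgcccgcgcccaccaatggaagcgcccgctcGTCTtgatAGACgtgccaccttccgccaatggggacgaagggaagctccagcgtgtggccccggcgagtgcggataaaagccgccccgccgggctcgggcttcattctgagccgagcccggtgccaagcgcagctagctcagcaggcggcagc
ID3: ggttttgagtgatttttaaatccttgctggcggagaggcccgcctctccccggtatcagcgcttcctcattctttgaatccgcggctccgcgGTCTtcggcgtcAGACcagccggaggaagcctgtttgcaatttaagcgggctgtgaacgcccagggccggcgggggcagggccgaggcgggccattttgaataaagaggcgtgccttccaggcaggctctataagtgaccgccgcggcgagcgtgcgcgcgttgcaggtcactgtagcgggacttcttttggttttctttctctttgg
ID1: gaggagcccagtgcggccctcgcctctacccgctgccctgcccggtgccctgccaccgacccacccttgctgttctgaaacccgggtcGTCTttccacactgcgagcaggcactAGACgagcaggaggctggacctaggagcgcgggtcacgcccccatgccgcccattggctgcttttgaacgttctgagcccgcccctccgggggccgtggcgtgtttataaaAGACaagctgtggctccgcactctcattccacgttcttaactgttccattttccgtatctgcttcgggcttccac

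On both strands together these windows held 2 GTCT matches for ID2, 2 for ID3 and 3 for ID1. That is no distinction, since 84.0% of 35116 RefSeq promoters of the same length held at least 1 and the median was 2. The longer motif GGCGCC, a form of the BMP-responsive element, was in none of the 3 windows and in 19.2% of all promoters. Sequence outside these windows was not searched. CANNTG, the E-box of helix-loop-helix factors, was found once, in the ID2 window, and in 68.7% of all promoters.

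The list of BMP/SMAD feedback genes and ID targets, which includes the ID genes themselves, had 8 tested members. Of these 5 rose, ID1, ID2 and ID3 among them, and none fell. The median log2 value of the list, ID genes included, was 0.41 against 0.00084 over all rows tested. The other 2 that rose were SMAD9, a receptor-activated SMAD (4.49 and 5.71 CPM in LINC00520-transduced cells against 4.15, 3.63 and 3.26 CPM in untransduced cells, edgeR adjusted p = 0.011), and the homeobox gene MSX1 (log2 0.38, edgeR adjusted p = 0.016). Neither call held without 1 LINC00520-transduced library, with an adjusted p of 0.250 for SMAD9 without replicate 2 and 0.139 for MSX1 without replicate 1. The inhibitory SMAD7 and the decoy receptor BAMBI, at 0.06 and 0.10 on the log2 scale, did not pass the test. Among 14 receptors and SMADs of the family 2 rose and 3 fell, with TGFBR1, a TGF-beta type I receptor, at 38.5 and 38.3 CPM in LINC00520-transduced cells against 27.4, 27.1 and 26.8 CPM in untransduced cells. Among 12 ligands, binding proteins and antagonists 5 rose and 4 fell. Of the genes named for latent TGF-beta binding proteins, LTBP1 rose 1.5-fold and LTBP2 by 0.18 on the log2 scale, while LTBP3 fell 1.69-fold and LTBP4 1.24-fold. The stress-induced family member GDF15 fell 1.73-fold.

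Several secreted matrix proteins rose. Rows with 3 or fewer fragments in a group apart, POSTN rose most among non-lincRNA rows with a single gene symbol. POSTN encodes the matricellular protein periostin (chromosome 13, 38136720 to 38183563). It had 20.0 and 18.2 CPM in LINC00520-transduced cells, against 2.76, 2.00 and 1.23 CPM in untransduced cells. It rose 9.08-fold (log2 3.18, SE 0.133, edgeR adjusted p = 2.37e-15). FN1, the matrix protein fibronectin (chromosome 2, 216225181 to 216300796), had 326 and 342 CPM in LINC00520-transduced cells and 118, 98.8 and 112 CPM in untransduced cells, a 3.04-fold rise (log2 1.61, SE 0.0442, edgeR adjusted p = 9.13e-19). THBS1, thrombospondin-1, had 515 and 543 CPM in LINC00520-transduced cells and 253, 257 and 279 CPM in untransduced cells, a 2.01-fold rise. The groups did not overlap in any of these genes, nor did they in 66.5% of all rows tested.

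Of the 19 tested matricellular and fibrillar matrix genes, 11 rose and 2 fell, with a median log2 value of 0.23. Besides POSTN, FN1 and THBS1 they included FAP, a surface protease of activated stromal cells (1.77-fold), the proteoglycan VCAN (1.35-fold) and TGFBI, a secreted adhesion protein (1.32-fold). The members that fell were the collagen cross-linking enzymes LOX (1.58-fold lower) and LOXL1 (1.31-fold lower). CTGF and SPARC, at -0.08 and -0.06 on the log2 scale, did not pass the test. Of 11 collagens 5 rose and 3 fell, by at most 0.40 on the log2 scale, the value of the hemidesmosomal collagen COL17A1. The shares over all rows tested were 25.2% higher and 24.8% lower.

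Other large rises were spread over unrelated functions. SPINK6, an inhibitor of skin kallikrein proteases, had 2.96 and 2.45 CPM in LINC00520-transduced cells and 0.697, 0.832 and 0.705 CPM in untransduced cells (3.63-fold, edgeR adjusted p = 1.58e-07). KLK10, a kallikrein, rose 2.44-fold and RNASE7, an antimicrobial ribonuclease of skin, rose 2.56-fold. NLRP3, the sensor of an inflammasome that activates interleukin-1, had 5.31 and 5.88 CPM in LINC00520-transduced cells and 1.87, 1.70 and 1.10 CPM in untransduced cells (3.46-fold, edgeR adjusted p = 2.68e-09). Secreted signals among them were PTHLH, the parathyroid hormone-related protein (2.63-fold), NRG1, a ligand of ERBB receptors (2.51-fold), and IGFL1, an insulin growth factor-like protein (3.43-fold). IFI27, an interferon-induced gene, rose 3.51-fold at a very low level, with 1.48 and 0.981 CPM in LINC00520-transduced cells and 0.446, 0.266 and 0.309 CPM in untransduced cells. HSD17B2, which inactivates estradiol and testosterone, rose 2.64-fold, the transposase-derived PGBD5 2.55-fold, TAGLN, an actin-binding protein of contractile cells, 2.41-fold, and LFNG, a glycosyltransferase acting on Notch, 2.30-fold. Other rises of at least 2.31-fold were in FRMD3, KCNJ15, KRT14, CPA4, CLSPN, FAM111B and RPSAP52.

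The largest falls among non-lincRNA rows with a single gene symbol included a tight junction gene, the gene of a secreted protein and a chemokine receptor gene. TJP3, the tight junction scaffold ZO-3 (chromosome 19, 3708382 to 3750681), had 1.03 and 1.69 CPM in LINC00520-transduced cells, against 7.0, 8.59 and 8.11 CPM in untransduced cells (5.80-fold lower, log2 -2.54, SE 0.173, edgeR adjusted p = 1.57e-11). SFTPB, the surfactant protein B of lung, had 1.11 and 0.758 CPM in LINC00520-transduced cells and 4.32, 5.46 and 4.54 CPM in untransduced cells (5.04-fold lower). CXCR4, the receptor of the chemokine CXCL12, had 0.741 and 0.624 CPM in LINC00520-transduced cells and 2.65, 3.66 and 3.40 CPM in untransduced cells (4.63-fold lower). All 3 were low in both LINC00520-transduced libraries.

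At higher counts, CAMK2B, a calcium/calmodulin-dependent kinase subunit, had 25.7 and 25.9 CPM in LINC00520-transduced cells, against 95, 108 and 101 CPM in untransduced cells (3.93-fold lower, log2 -1.98, SE 0.0545, edgeR adjusted p = 9.13e-19). LAPTM5, a lysosomal membrane protein best known from blood cells, had 44.4 and 41.4 CPM in LINC00520-transduced cells and 137, 153 and 154 CPM in untransduced cells (3.44-fold lower). CDKN1C, the cyclin-dependent kinase inhibitor p57, had 5.64 and 5.04 CPM in LINC00520-transduced cells and 14.6, 17.2 and 15.6 CPM in untransduced cells (2.95-fold lower). NGFR, a marker of myoepithelial and basal cells, fell 3.48-fold, the glycerol channel AQP3 3.32-fold and NFE2, a transcription factor of blood cells, 3.46-fold. The adaptor STAC2 fell 4.71-fold, the inositol phosphate kinases IP6K3 and ITPKA 4.58-fold and 3.01-fold, and BBOX1, the last enzyme of carnitine synthesis, 3.95-fold. Other large falls were in CA11, ZNF467, SLC22A18AS, FIBIN, GOLT1A, FAM65B, TMEM125, LGALS7B and LSP1, each at least 2.76-fold lower. LGALS7B had 0.124 and 0.357 CPM in LINC00520-transduced cells against 0.585, 0.766 and 0.705 CPM in untransduced cells, and its call was lost without LINC00520-transduced replicate 1 (adjusted p = 0.174).

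**Figure D2:**
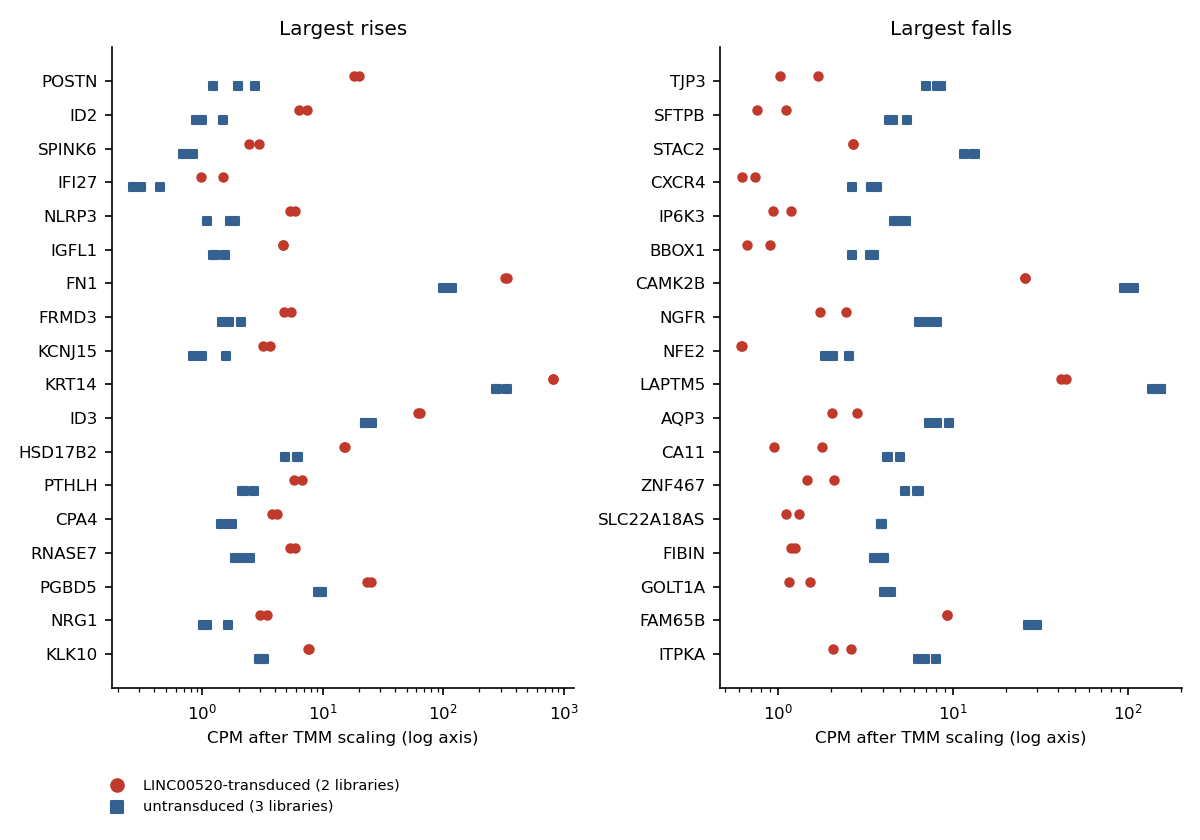
CPM after TMM scaling (log axis) is plotted per library for 18 of the largest rises (left) and 18 of the largest falls (right). The genes are non-lincRNA rows with a single gene symbol. LINC00520-transduced libraries are red circles and untransduced libraries are blue squares. Only genes whose libraries do not overlap between groups were plotted, so the gap between red and blue points follows from that choice. POSTN, for one, lay at 18.2 and 20.0 against 1.23 to 2.76 CPM and FAM65B at 9.23 and 9.26 against 26.8 to 30.3 CPM.

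The genes of DNA replication were higher almost throughout. Of the 23 tested genes that license and fire replication origins, 22 rose and none fell, with a median log2 value of 0.65 and 18 past the 1.2-fold test. ORC4, an origin recognition subunit at 0.01 on the log2 scale, was the exception. MCM10, which helps to start the helicase, had 41.5 and 42.6 CPM in LINC00520-transduced cells and 19.2, 17.9 and 18.3 CPM in untransduced cells (2.27-fold, log2 1.18, SE 0.0529, edgeR adjusted p = 8.82e-15). CDC6, the helicase loader, had 71.4 and 76.0 CPM in LINC00520-transduced cells and 36, 34 and 33.9 CPM in untransduced cells (2.12-fold, log2 1.08, SE 0.047, edgeR adjusted p = 4.9e-15). The helicase subunits MCM2 to MCM7 rose by 0.53 (MCM7) to 0.73 (MCM5) on the log2 scale. The 4 GINS subunits rose by 0.76 to 0.82.

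Of the 27 tested polymerase, clamp and replisome genes 25 rose and none fell, with a median of 0.47. CLSPN, the checkpoint mediator claspin, had 31.9 and 30.3 CPM in LINC00520-transduced cells and 14, 11.9 and 13 CPM in untransduced cells (2.39-fold). FEN1, the flap nuclease, rose 1.87-fold and PCNA, the sliding clamp, 1.61-fold. The single-strand binding subunits RPA1 and RPA3, at 0.06 and 0.10 on the log2 scale, did not pass the test. Of the 24 homologous recombination and mismatch repair genes 22 rose and none fell, with a median of 0.57, among them EXO1 (64.7 and 66.1 CPM in LINC00520-transduced cells against 37.8, 34 and 33.3 CPM in untransduced cells), BRCA1 (1.79-fold) and BRCA2 (1.72-fold). The checkpoint kinase ATM (0.07) and the mismatch repair gene PMS2 (0.02) did not pass the test.

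The mitotic genes moved the same way. Of 31 tested, 30 rose and 1 fell, with a median of 0.52 and 27 past the 1.2-fold test. MYBL2, a transcription factor of the late cell cycle, had 90.5 and 90.7 CPM in LINC00520-transduced cells and 55.2, 52.2 and 49.9 CPM in untransduced cells (1.72-fold). CCNB1, the mitotic cyclin B1, rose 1.33-fold. The member that fell was CDC25B, a phosphatase that activates mitotic CDK1, 1.18-fold lower.

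Control of the G1/S step was more mixed. Of 20 tested genes 13 rose and 3 fell, with a median of 0.32. CCNE2, the G1/S cyclin E2, had 15.4 and 16.8 CPM in LINC00520-transduced cells and 8.34, 7.29 and 7.14 CPM in untransduced cells (2.09-fold, edgeR adjusted p = 2.42e-10). CCNE1, cyclin E1, rose 1.97-fold and the E2F factors E2F1, E2F2, E2F7 and E2F8 by 0.71, 0.97, 0.86 and 1.06 on the log2 scale. Those that fell were the inhibitor CDKN1C, the inhibitor p21 (CDKN1A, 1.12-fold lower) and the RB-family gene RBL2. The inhibitor p27 (CDKN1B, log2 -0.11, edgeR adjusted p = 0.073) did not pass the test.

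Enzymes that make nucleotides followed, with 18 of 22 higher, 2 lower and a median of 0.30. RRM2, the S-phase subunit of ribonucleotide reductase, had 236.7 and 240.6 CPM in LINC00520-transduced cells and 120.5, 108 and 110.1 CPM in untransduced cells (2.11-fold, log2 1.08, SE 0.0369, edgeR adjusted p = 4.85e-17). TK1, the S-phase thymidine kinase, rose 1.61-fold. The members that fell were RRM2B, the p53-inducible counterpart of RRM2, at -0.24, and IMPDH2, of guanine nucleotide synthesis, at -0.19 on the log2 scale.

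The polyadenylated replication histone transcripts did not move with those genes. Of 10 tested none rose and 6 fell, with a median of -0.41, and HIST2H2BE had 3.75 and 3.74 CPM in LINC00520-transduced cells against 8.08, 6.92 and 8.16 CPM in untransduced cells. Most histone messages of S phase carry no poly(A) tail, so polyA libraries hold a minor share of them.

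Genes of the ribosome and of its assembly moved in opposite directions. All 30 tested proteins of the large cytosolic subunit were lower, with log2 values of -0.27 to -0.08 and a median of -0.17. All 27 of the small subunit were lower too, with a median of -0.19. None of them passed the 1.2-fold test. RPL37 had 616 and 614 CPM in LINC00520-transduced cells and 779, 731 and 719 CPM in untransduced cells, 1.21-fold lower (edgeR adjusted p = 1.25e-07). Many of these genes have processed pseudogenes that could take up reads. Of the 27 tested genes of ribosome biogenesis and RNA polymerase I 21 rose and none fell, with a median of 0.24. TCOF1, the treacle protein of ribosomal DNA transcription, rose 1.52-fold and the box C/D protein NOP56 1.37-fold.

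Nuclear-encoded subunits of oxidative phosphorylation were lower as a group, with none of 34 higher, 31 lower and a median of -0.18, and none past the 1.2-fold test. COX5B, a subunit of cytochrome c oxidase, had 118 and 115 CPM in LINC00520-transduced cells and 148, 148 and 142 CPM in untransduced cells (1.26-fold lower). The mitochondrial ribosome did not share this, with 7 of 26 genes higher, 2 lower and a median of 0.02.

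Cytosolic heat shock chaperones were higher, with 18 of 24 up, 1 down (the heat shock factor HSF1, at -0.15) and a median of 0.19. HSPH1, an HSP110 exchange factor, had 310 and 299 CPM in LINC00520-transduced cells and 205, 201 and 198 CPM in untransduced cells (1.51-fold). HSPA8, the constitutive HSP70, rose 1.30-fold and HSP90AA1, the inducible HSP90, 1.36-fold. Of the 14 tested chaperonin and prefoldin genes 7 rose and 1 fell, and of the 21 endoplasmic reticulum chaperones and unfolded-protein genes 7 rose and 2 fell, with a median of 0.02.

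**Figure D3:**
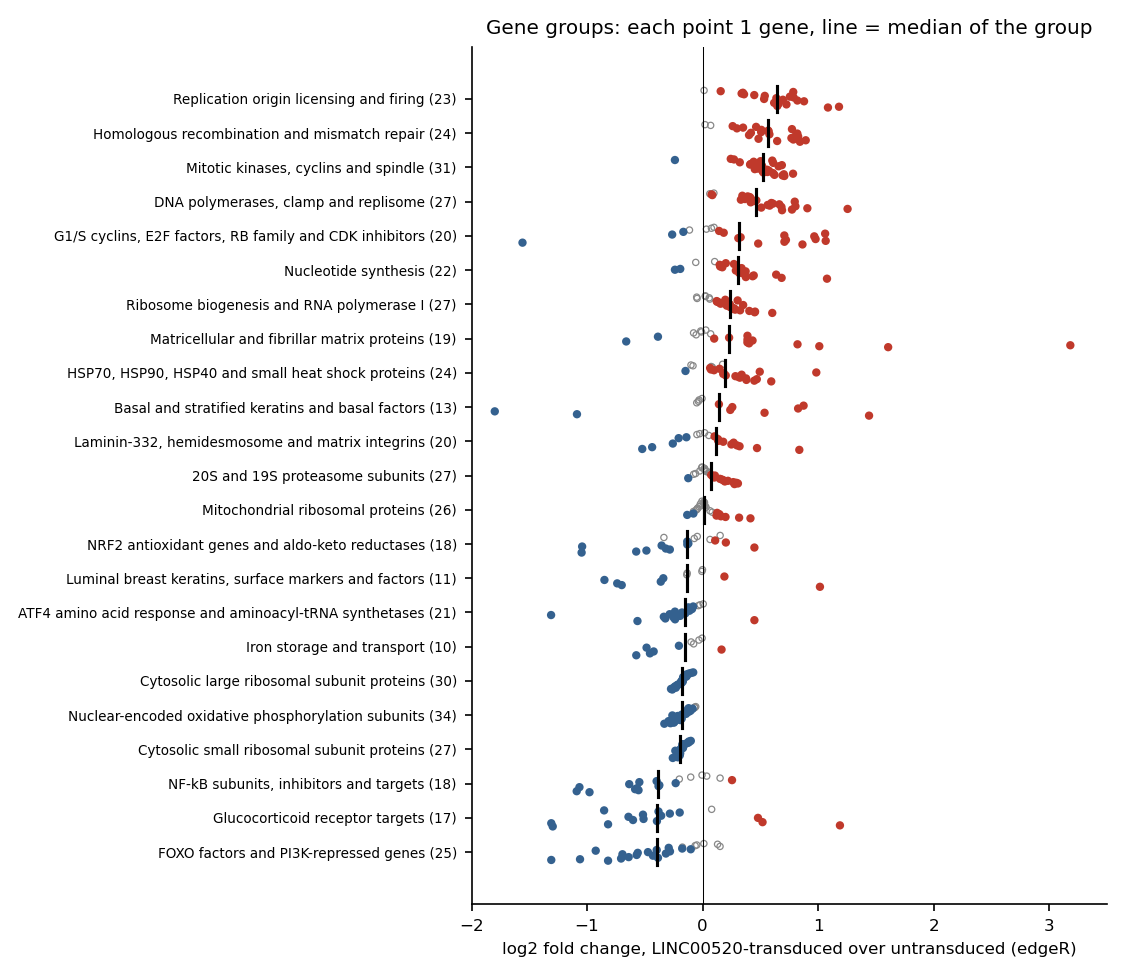
Each point is the log2 fold change of 1 gene, LINC00520-transduced over untransduced cells (edgeR), in 23 gene groups ordered by their median (black line), with genes past the test in red (higher) or blue (lower), other genes as open circles and the number tested in brackets. Replication, repair and mitosis genes lie almost wholly to the right of 0 (medians 0.47 to 0.65), ribosomal protein and oxidative phosphorylation genes form tight clusters just to the left (medians -0.19 to -0.17), and the FOXO, glucocorticoid and NF-kB groups have the lowest medians of the groups plotted (-0.40 to -0.39).

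Adhesion to the basement membrane was higher in part. LAMA3 and LAMB3, laminin chains that anchor epithelial cells, rose 1.25-fold and 1.10-fold. Their receptor, integrin alpha-6 beta-4, was split, with ITGA6 1.39-fold higher and ITGB4, at a log2 value of 0.02, not past the test. Of the 20 tested genes of this group 11 rose and 5 fell, against 25.2% and 24.8% of all rows tested. The laminin chains of other basement membranes LAMB1 (1.44-fold lower; 582 and 561 CPM in LINC00520-transduced cells against 800.2, 832 and 829.7 CPM in untransduced cells), LAMB2 and LAMA5 were among those that fell.

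Basal keratins did not move together. KRT14, a keratin of basal cells, had 815 and 813 CPM in LINC00520-transduced cells and 341, 275 and 282 CPM in untransduced cells (2.71-fold, log2 1.44, SE 0.0514, edgeR adjusted p = 8.91e-17). Its span in the table, chromosome 17 from 39632942 to 39942964, is shared with the rows of KRT15, KRT16 and KRT17, so the deposited coordinates describe a cluster and not the gene. KRT15, found in quiescent basal cells, had 105 and 92.3 CPM in LINC00520-transduced cells and 196, 223 and 211 CPM in untransduced cells (2.12-fold lower). KRT5, the partner of KRT14, had 5338 and 5567 CPM in LINC00520-transduced cells and 5691, 5458 and 5559 CPM in untransduced cells, and the basal factor TP63 stood at -0.01 on the log2 scale. Neither passed the test. KRT6A rose 1.45-fold, KRT6B 1.77-fold and KRT17 1.18-fold, but these keratins have close copies between which reads can be divided. Of the 13 tested genes of the group 7 rose and 2 fell.

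Luminal genes were lower more often than higher, at 5 and 2 of 11 tested, with a median of -0.14. Over all rows tested 24.8% were lower and 25.2% higher. KRT8, a keratin of simple and luminal epithelium, had 153 and 158 CPM in LINC00520-transduced cells and 247, 259 and 249 CPM in untransduced cells (1.62-fold lower, edgeR adjusted p = 1.19e-14), and its partner KRT18 fell 1.29-fold. The surface protein EPCAM fell 1.67-fold and the epithelial factor EHF 1.80-fold. CD24, a surface glycoprotein of luminal cells whose row the table places on chromosome Y, went the other way, with 119 and 116 CPM in LINC00520-transduced cells and 58.7, 59.2 and 56.5 CPM in untransduced cells (2.02-fold higher). The estrogen receptor ESR1 and KRT19 were not among the rows tested. Secreted products of glandular epithelium fell in 5 of 6 tested genes, with a median of -0.89. Besides SFTPB they were the chaperone-like clusterin (CLU, 12.3 and 13.3 CPM in LINC00520-transduced cells against 26.7, 30.4 and 30.1 CPM in untransduced cells), the calprotectin chains S100A8 (1.88-fold lower) and S100A9 (1.82-fold lower), and LCN2, whose call was lost without LINC00520-transduced replicate 2 (adjusted p = 0.154) or untransduced replicate 2 (adjusted p = 0.0679).

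Genes of cornification, the terminal program of stratified epithelium, rose in 7 of 10 tested and fell in 1, with a median of 0.67. SPINK6 and KLK10 rose most. SPRR1B, a cornified envelope precursor, had 5.02 and 4.72 CPM in LINC00520-transduced cells and 2.84, 3.30 and 2.87 CPM in untransduced cells (1.62-fold), and KRT10 was the gene that fell. With the filter set at an FPKM of 5 the median of the few genes left was -0.01. Of 15 tight junction genes tested 2 rose and 6 fell, with a median of -0.04. Besides TJP3, the polarity protein CRB3 was 1.39-fold lower and the claudin CLDN1 1.24-fold. Of 9 desmosome genes 2 rose and 3 fell, against 25.2% and 24.8% of all rows tested.

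Genes that are held down by insulin and PI3K signalling through FOXO factors, together with the factors themselves, were lower in 19 of 25 cases and higher in none, with a median of -0.40 and 13 past the 1.2-fold test. PDK4, a kinase that restrains pyruvate oxidation, had 20.5 and 17.9 CPM in LINC00520-transduced cells and 46.4, 47.8 and 49.5 CPM in untransduced cells (2.48-fold lower, log2 -1.31, SE 0.061, edgeR adjusted p = 1.75e-14). BCL6, a transcriptional repressor, fell 2.09-fold, and TXNIP, an arrestin that curbs glucose uptake, 1.63-fold. The factors FOXO1, FOXO3 and FOXO4 stood at -0.29, -0.39 and -0.69 on the log2 scale, all past the test. IRS1, IRS2, SESN3, CCNG2, GADD45A and GADD45B did not pass it.

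Targets of the glucocorticoid receptor, which the hydrocortisone of the medium activates, fell in 13 of 17 cases and rose in 3, with a median of -0.40. TSC22D3, known as GILZ, had 75.5 and 78.0 CPM in LINC00520-transduced cells and 187, 192 and 186 CPM in untransduced cells (2.46-fold lower, log2 -1.30, SE 0.0345, edgeR adjusted p = 7.98e-19). FKBP5, a chaperone that dampens the receptor, fell 1.15-fold, and the receptor gene NR3C1, at 0.08 on the log2 scale, did not pass the test. ANGPTL4 and RGS2 were among the targets that rose, by 0.52 and 0.48 on the log2 scale, and the largest rise of a target was 1.19. PDK4 and ERRFI1 (1.76-fold lower), a feedback inhibitor of the EGF receptor, stand in both this list and the FOXO list, so the lists are not separate counts.

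NF-kB subunits, inhibitors and targets fell in 12 of 18 cases and rose in 1, NFKBIB, with a median of -0.39. SOD2, the mitochondrial superoxide dismutase, had 195 and 188 CPM in LINC00520-transduced cells and 361, 382 and 391 CPM in untransduced cells (1.97-fold lower, log2 -0.98, SE 0.0345, edgeR adjusted p = 7.62e-17). TNFAIP2 fell 2.13-fold and SAA1, a serum amyloid with a close copy in SAA2, 1.48-fold. Of the subunit genes NFKB2 fell 1.18-fold, while RELA, RELB, NFKB1 and REL did not pass the test, with RELA at 62.5 and 61.4 CPM in LINC00520-transduced cells and 64.0, 60.0 and 62.4 CPM in untransduced cells. Among 8 chemokines and their receptors 1 rose, CCL28 (1.76-fold), and 4 fell, CXCR4, CXCL2, CXCL3 and CXCL16, of which CXCL3 lost its call without LINC00520-transduced replicate 2 (adjusted p = 0.168).

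AP-1 and immediate early genes fell in 10 of 17 cases. FOS had 44.5 and 37.8 CPM in LINC00520-transduced cells and 67.0, 58.6 and 68.7 CPM in untransduced cells (1.57-fold lower), and JUN and MYC fell 1.18-fold and 1.21-fold. FOSL1, the FRA1 subunit of AP-1, was the member that rose, with 47.9 and 45.9 CPM in LINC00520-transduced cells and 30.3, 27.4 and 31.4 CPM in untransduced cells (1.58-fold). EGF receptor ligands and ERK feedback genes were split, with 7 of 21 higher and 5 lower.

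Amino acid response genes and aminoacyl-tRNA synthetases under ATF4 fell in 17 of 21 cases with a median of -0.15. DDIT4, an inhibitor of mTOR, had 487 and 539 CPM in LINC00520-transduced cells and 739, 797 and 739 CPM in untransduced cells (1.48-fold lower). ATF4 itself was at -0.24 on the log2 scale, and the cystine transporter SLC7A11, which also stands in the NRF2 list, was the member that rose (1.36-fold). Of the 18 NRF2 antioxidant genes 3 rose and 10 fell. AKR1C2, an aldo-keto reductase with close copies, fell 2.07-fold, TKT, the transketolase of the pentose phosphate pathway, 1.49-fold and the quinone reductase NQO1 1.22-fold. Both ferritin chains fell, FTH1 1.49-fold and FTL 1.37-fold, while the transferrin receptor TFRC was at 0.16 on the log2 scale and past the test.

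Of the 18 JAK, STAT and SOCS genes 3 rose and 2 fell. The member with the largest change was the kinase gene PIM3, with 54.2 and 53.8 CPM in LINC00520-transduced cells and 100.3, 105 and 99.2 CPM in untransduced cells (1.88-fold lower). SOCS3, the main feedback target of STAT3, at -0.31 on the log2 scale, did not pass the test. Of 11 Src family kinases and regulators 3 rose and 2 fell, against 25.2% and 24.8% of all rows tested. In the interleukin and inflammasome list, NLRP3, IL1A (log2 0.38) and IL1RAP (0.31) rose, and 4 of 14 fell. IL6R, the interleukin-6 receptor, had 13.5 CPM in both LINC00520-transduced libraries and 23.9, 27.7 and 26.8 CPM in untransduced cells (1.93-fold lower), while IL1B (log2 0.21, edgeR adjusted p = 0.103) did not pass the test.

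Counted as shares of the library, the largest shifts lay in abundant genes with modest folds. A share in CPM grows with transcript length as well as with the number of molecules, so it is used here only for the amount that moved. The called higher rows gained 54177 CPM in all and the called lower rows changed by -52499 CPM, of which the 10 largest made up 11.5% and 10.1%. HSPA8 had 4176 and 4206 CPM in LINC00520-transduced cells against 3334, 3177 and 3158 CPM in untransduced cells, a gain of 968 CPM, and HSP90AA1 gained 967. KRT81, a hair-type keratin with close copies, gained 931, KRT6A 629 and KRT14 515. FTH1, the ferritin heavy chain, had 2299 and 2271 CPM in LINC00520-transduced cells against 3313, 3357 and 3536 CPM in untransduced cells, a difference of -1117 CPM. The translation factor EEF2 differed by -624, RPL3 by -520, TKT by -469 and GAPDH, which is often used as a constant control, by -468 CPM (1.09-fold lower, edgeR adjusted p = 0.00085).

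**Figure D4:**
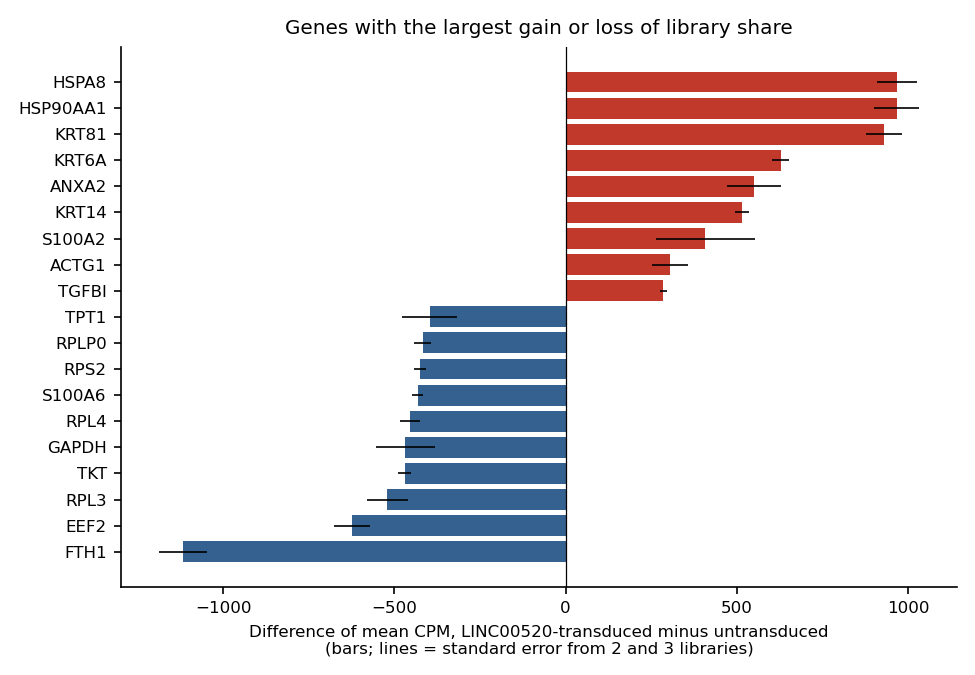
Bars give the difference of mean CPM, LINC00520-transduced minus untransduced cells, for 9 of the 10 called genes with the largest gain (red) and the 10 with the largest loss (blue), and lines give the standard error from 2 and 3 libraries. HSPA8 and HSP90AA1 stand highest at 968 and 967 CPM and FTH1 lowest at -1117 CPM.

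Of the tested rows 1781 were lincRNAs by name, and they were called less often and more often lower than the 10348 other rows with a single gene symbol. Those symbols were not checked for coding and may include non-coding genes. Among lincRNA rows 234 were higher and 446 lower (38.2% called, median -0.07). Among the other rows with a single gene symbol 2835 were higher and 2576 lower (52.3% called, median 0.01). No test of this difference was made, and the rows differ in level, on which the share called depends. By the authors' names, 301 of the 1204 antisense lincRNA rows and 44 of the 141 bidirectional promoter rows were lower, against 184 and 11 higher. No strand setting is stated, so where an antisense row (named -AS) overlaps a gene, its reads may come from that gene. Apart from LINC00520, the largest lincRNA rise was of linc-HOXC13-AS, named for the homeobox gene HOXC13, with 3.25 and 3.48 CPM in LINC00520-transduced cells and 1.09, 0.999 and 0.441 CPM in untransduced cells (3.76-fold, edgeR adjusted p = 1.5e-07). HOXC13 itself rose 1.43-fold. linc-FN1-AS rose 3.03-fold, but its span is that of FN1, and without a stated strand setting reads of the pair cannot be told apart. Among the named lincRNAs other than LINC00520, linc-CREB1-2 had the highest CPM, at 53.1 and 47.1 CPM in LINC00520-transduced cells against 24.5, 21.5 and 21.5 CPM in untransduced cells (2.22-fold). linc-PLXNA2-2 and linc-BOD1L-2 rose 2.96-fold and 2.49-fold.

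The largest lincRNA fall was of linc-PAPPA-1, with 4.53 and 4.10 CPM in LINC00520-transduced cells and 12.9, 15.6 and 15.3 CPM in untransduced cells (3.34-fold lower, edgeR adjusted p = 5.33e-12). linc-TSKU-AS had 8.40 and 7.18 CPM in LINC00520-transduced cells and 22.8, 25.6 and 26.0 CPM in untransduced cells (3.16-fold lower), and linc-GBP2-AS fell 3.11-fold. The other 3 of the 6 largest falls, linc-PPIAL4D, linc-TCP11-2 and linc-DNAJC27-BP, were below 1 CPM in every library, with edgeR adjusted p-values of 0.0391, 0.0332 and 0.0291, and each lost its call under 3 to 5 alternatives. Without LINC00520-transduced replicate 1 their edgeR adjusted p-values were 0.327, 0.188 and 0.364. linc-PPIAL4D also lost its call without untransduced replicate 2 (adjusted p = 0.106), linc-TCP11-2 without LINC00520-transduced replicate 2 (0.0751) or untransduced replicate 2 (0.0909) and linc-DNAJC27-BP without untransduced replicate 1 (0.0821). Over the 23 chromosomes the median log2 fold change ran from -0.06 on chromosome 19 to 0.06 on chromosome 18, and 43.3% to 54.3% of the rows of a chromosome were called.

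The authors' deposited table marked fewer genes. In it 1898 of 14753 rows tested were significant (12.9%), 975 of them higher and 923 lower. Of the 12787 rows that both analyses tested, the authors' deposited table marked 1782, and 1778 of these were also called by edgeR with the same sign. Of the 162 rows called with a 2-fold change by edgeR, 138 were significant in the authors' deposited table. For LINC00520 the authors' deposited table gives a log2 change of 9.19 (q = 0.00895), which is taken from FPKM and is larger than that from fragments.

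The same rows were measured in the study's other experiment, MCF10A-Src cells, which carry a Src kinase that tamoxifen activates, with 2 libraries each at 4 h and 36 h of tamoxifen. The experiments share no library and were normalized separately, so values are set side by side and not tested. A row was counted as moved there when both 36 h libraries lay on 1 side of both 4 h libraries and the means differed at least 2-fold, which held for 7.73% of tested rows in the higher and 12.1% in the lower direction. LINC00520 had 159 and 197 CPM at 36 h against 1.55 and 0.959 CPM at 4 h. Of the 55 measured rows at least 2-fold higher with LINC00520, itself left out, 13 were higher at 36 h (23.6%) and 23 were lower (41.8%). Of the 105 rows at least 2-fold lower with LINC00520, 29 were higher at 36 h (27.6%) and 35 lower (33.3%). Rows that changed with LINC00520 thus moved more often in both directions than the background share, without a single direction. Rows of low level, where most 2-fold changes lie, hold few fragments in both experiments, and the part this plays was not tested. Seen from the other experiment, of the 985 rows higher at 36 h 1.32% were at least 2-fold higher with LINC00520 and 2.94% at least 2-fold lower. Of the 1539 rows lower at 36 h 1.49% were at least 2-fold higher and 2.27% at least 2-fold lower, against 0.446% and 0.821% of all rows tested.

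Examples of each kind were found among the largest changes. POSTN, higher with LINC00520, had 7.98 and 11.7 CPM at 36 h against 2.73 and 3.18 CPM at 4 h. NLRP3 had 125 and 113 CPM at 36 h against 2.48 and 4.01 CPM at 4 h, and HSD17B2 57.5 and 60.2 CPM at 36 h against 5.73 and 6.58 CPM at 4 h. These 3 were higher in both experiments. ID3, higher with LINC00520, was lower at 36 h, with 7.27 and 6.02 CPM against 38.1 and 48.3 CPM at 4 h. TAGLN and PGBD5 shared that pattern, with TAGLN at 0.855 and 0.649 CPM at 36 h against 16 and 9.63 CPM at 4 h. CAMK2B, lower with LINC00520, had 1.57 and 1.58 CPM at 36 h against 28.6 and 40.5 CPM at 4 h. SFTPB, also lower with LINC00520, had 11.9 and 13.5 CPM at 36 h against 0.929 and 1.13 CPM at 4 h.

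The cells carried the markers of the line in every library, with all 9 markers of MCF10A above the filter on low levels. Most markers of other cells were low. Of the 10 immune and blood markers with a row, 7 were under an FPKM of 1 in every library and 3, CD3E and HBD among them, were at 0 in every library. Their summed FPKM was 16.4 and 17.2 in LINC00520-transduced cells and 17.6 to 18 in untransduced cells, nearly all of it from CD14 and CD68. The summed FPKM of 10 fibroblast and endothelial markers was 28.2 and 28.4 in LINC00520-transduced cells and 32.2 to 34.1 in untransduced cells, with 7 under an FPKM of 1 and LUM and CDH5 at 0. Of the 3 of them tested, ACTA2, of smooth muscle and myofibroblasts, fell 1.29-fold and KDR, a receptor of endothelial cells, 1.28-fold, and DCN did not pass the test. Of the 3 immune and blood markers tested CD14 fell 1.51-fold, CD68 did not pass the test and the beta-globin gene HBB rose. HBB had 13 and 15 fragments in LINC00520-transduced cells against 3, 0 and 0 in untransduced cells (edgeR adjusted p = 5.59e-05), a 17.2-fold ratio per fragment sequenced with an exact 95% counting interval of 5.32 to 88.6. That is a larger fold than that of POSTN, at few fragments. HBB passed the filter on low levels only through the LINC00520-transduced libraries, at 1.10 and 1.38 FPKM. Its p-value and interval thus describe a gene chosen for being high there. The part of other cells in the results was not tested.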

How the data were processed

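Per the submitters' processing notes, base calls came from CASAVA 1.4, reads were aligned to hg19 with TopHat and quantified with Cuffdiff; the other versions, the gene annotation and strand handling are not given in the sources used here. Per the file headers, the authors' table holds an estimated count of fragments and FPKM for each gene row and library. The authors' deposited calls table holds, per pair of conditions, the log2 fold change with its p-value and q-value. A further 7 libraries of the table matched no label and were not used, and the 2 samples of a control lincRNA were not analysed here.

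Estimated counts were rounded; 92.4% to 92.5% of values in a library were whole before rounding. Rows that reached an FPKM of 1 in 2 or more of the 5 libraries and a Cuffdiff status of OK (22 rows lacked it) were fitted with edgeR 4.0.16 (TMM, glmQLFit, glmQLFTest, 1 coefficient per group, 3 residual degrees of freedom; R 4.3.3). P-values were 2-sided, adjusted by Benjamini-Hochberg over all 12790 rows, with a threshold of 0.05. glmTreat used a 1.2-fold interval. CPM values are edgeR's after TMM scaling, and standard errors are the log2 fold change over the square root of the F statistic. Same-numbered libraries did not deviate together (correlations -0.057 and -0.047), so numbers only name libraries. Replicates differed by more than counting noise (median chi-square ratio 1.66 in LINC00520-transduced and 1.63 in untransduced libraries), and none was counted as a duplicate. The fit was tested on simulated data.

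The rows compared and the 55 gene lists (1215 symbols, 1151 with a row, 23 of them through a synonym, 965 tested) were chosen with earlier results of these data known. Genes were named by rule: LINC00520 with SRC and STAT3; the 25 largest rises and falls among called coding rows with more than 3 fragments in each group and libraries that do not overlap; the 10 largest gains and losses of CPM; the 6 largest lincRNA rises and falls; up to 5 called members of each list with the smallest p; and the ID family. Coding rows here are rows with a single gene symbol outside the authors' lincRNA names, and no coding annotation was used. Other list members were named after their values were seen. DESeq2 1.42.0, limma 3.58.1 on log2(FPKM + 1) and log2(FPKM + 0.1), other scalings and filters, a replicate block and leaving out each library were alternatives. Promoter sequences came from RefSeq (matched by symbol, 4 of the 4 ID genes). A few genes that this rule names and a transcript sequence are not reported here. Python 3.11.15, pandas 2.3.3, numpy 2.4.6, scipy 1.17.1 and matplotlib 3.10.9 were used.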

Additional observations from a re-analysis of the deposited data

How the results depend on the processing

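The numbers of higher and lower rows stayed within 1.5 times of 3218 and 3178 under all 15 alternatives, and no named row changed its direction where it was called. The medians of 12 of the 55 lists changed sign under an alternative, 11 of them from within 0.1 of 0; the other was cornification, at 0.67 and, with an FPKM of 5 or more, at -0.01. With an FPKM of 5 or more in 2 libraries 27 rows were at least 2-fold higher and 32 lower, and 452 were lower by more than 1.2-fold, since fewer rows were tested (9153). With limma on log2(FPKM + 1) the 2-fold counts were 27 and 34, all of them among the 57 and 105 of edgeR; a pseudocount understates folds of low rows. Without an FPKM filter, over 25908 rows, they were 181 and 355. DESeq2 called 2493 higher and 2456 lower rows, with 57 and 100 at least 2-fold. Leaving out 1 library gave 2473 to 3177 higher and 2368 to 3134 lower rows, 47 to 66 and 103 to 114 at least 2-fold, and 531 to 735 and 525 to 769 beyond 1.2-fold; where 1 LINC00520-transduced library was left, it was assumed to vary like the untransduced ones. Library totals, DESeq2 size factors and upper-quartile factors moved the median of all rows by at most 0.01 on the log2 scale. The replicate numbers pair no samples by label or data; a replicate block gave 2756 higher and 2744 lower rows, 53 and 103 at least 2-fold, and 586 and 649 beyond 1.2-fold. Of 4676 values of named rows under an alternative, 82 lost their call, and the cause was not tested. Rows of low level are limited by depth.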

Other observations

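Several further gene groups were measured in LINC00520-transduced against untransduced cells. Over all rows tested 25.2% were higher and 24.8% lower, and counts near those shares do not set a group apart. Among 28 interferon-stimulated and RNA-sensing genes 3 rose and 10 fell, with a median log2 value of -0.15. OAS1, which senses double-stranded RNA, had 11.1 and 11.2 CPM in LINC00520-transduced cells and 16, 16.1 and 16.5 CPM in untransduced cells (1.45-fold lower), and the transcription factor IRF1 fell 1.36-fold. Of 20 YAP/TAZ pathway genes and targets 10 rose and 3 fell. NT5E, the surface nucleotidase CD73, had 282 and 270.0 CPM in LINC00520-transduced cells and 137, 134 and 138 CPM in untransduced cells (2.03-fold), and F3, tissue factor, rose 2.00-fold, while the often used target CTGF did not pass the test. Among 21 p53 targets and BCL2 family genes 5 rose and 11 fell, with the pro-apoptotic BBC3 at 4.20 and 4.59 CPM in LINC00520-transduced cells and 8.42, 8.56 and 8.20 CPM in untransduced cells (1.91-fold lower). Of 27 lysosomal genes 6 rose and 12 fell, with the protease CTSD 1.36-fold lower.

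Among 15 epithelial plasticity factors, cadherins and vimentin 4 rose and 6 fell. SNAI2, a repressor of epithelial genes, had 2.72 and 2.67 CPM in LINC00520-transduced cells and 1.34, 1.43 and 1.72 CPM in untransduced cells (1.83-fold higher), CDH1, E-cadherin, fell 1.16-fold, CDH2, N-cadherin, rose by 0.26 on the log2 scale and VIM, vimentin, fell 1.12-fold. Of 14 HOX genes 1 rose, HOXC13, and 3 fell, with HOXA5 at 13.3 and 12.8 CPM in LINC00520-transduced cells and 20.5, 19.8 and 22.0 CPM in untransduced cells (1.58-fold lower). Proteasome subunits rose in 14 of 27 cases and fell in 1, with PSMD11 at 0.31 on the log2 scale and the median at 0.07. SR proteins and hnRNPs of splicing rose in 11 of 22 cases and fell in 4. Of 16 Notch and Wnt genes 6 rose and 4 fell (25.2% and 24.8% over all rows tested), with the Wnt antagonist DKK1 1.53-fold higher. Of 24 insulin, PI3K and mTOR signalling genes 6 rose and 11 fell. Of 25 sterol and fatty acid synthesis genes 6 rose and 9 fell, with SREBF1, their main lipogenic factor, 1.53-fold lower. Of 24 glycolysis and hypoxia genes 8 rose and 4 fell, and of 15 metallothioneins and S100 proteins 4 rose and 8 fell.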
